A study of Mus musculus with 7 samples.

Results

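The 8 genes Nlrp3, Nlrc4, Aim2, Pycard, Casp1, Casp4, Gsdmd and Txnip were taken by symbol from a table of 16047 genes measured in neutrophils of the acutely injured mouse liver. They code for 3 inflammasome sensors, the adaptor, the 2 inflammatory caspases, the pore protein of pyroptosis and a redox-sensitive partner of NLRP3. All C57BL/6 mice were male, 8 to 12 weeks old, and had acetaminophen-induced liver injury (AILI). The MC-21 group (n = 3, replicates 2, 3 and 4) was injected intraperitoneally with 400 µL of medium holding MC-21, a monoclonal antibody to CCR2 that depletes Ly6Chi monocytes, at 29 µg per mL. The PBS group (n = 4, replicates 5, 6, 7 and 8) received PBS, and injections in both groups began 12 h before acetaminophen and were repeated every 24 h. At 24 h of AILI, 50000 CD11b+ Ly6Clo Ly6G+ cells without CX3CR1-GFP were sorted from each liver and their RNA was sequenced from the 3′ end, 1 library per mouse. The strain label names no reporter allele, and livers without acetaminophen were not analysed here, so every value below is from an injured liver.

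Inflammasomes are cytosolic complexes that turn danger signals into inflammation. A sensor such as NLRP3, which responds to ion flux and cell damage, NLRC4, which responds to bacterial flagellin and secretion systems, or AIM2, which binds cytosolic DNA, assembles with the adaptor ASC, the product of Pycard, and activates caspase-1. Caspase-1 matures the cytokines IL-1β and IL-18 and cleaves gasdermin D, whose freed part forms pores in the plasma membrane, while mouse caspase-11, the product of Casp4, senses bacterial lipopolysaccharide and cleaves gasdermin D directly. TXNIP binds and inhibits thioredoxin and has been described as a partner of NLRP3. In sterile liver injury, dying hepatocytes release molecules that can trigger these sensors in infiltrating myeloid cells.

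All values are RPKM, reads per kilobase of transcript per 1000000 mapped reads. The spacing of low RPKM values placed the depth at 2660000 to 3960000 reads for the PBS libraries and at 1590000, 2780000 and 3570000 reads for MC-21 replicates 3, 4 and 2, so MC-21 replicate 3 gave the least precise values. Of a 12-gene neutrophil list, the most abundant gene was S100a9, which codes for a calprotectin subunit, with a mean of 18381 RPKM. All 12 neutrophil markers exceeded a mean of 1 RPKM. So did all 8 endothelial, all 7 hepatocyte and 13 of 14 monocyte and macrophage markers, so this level does not set neutrophils apart.

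The pathway genes spanned a wide range of levels in PBS neutrophils. Txnip was highest at 179 ± 3.99 RPKM (SD, n = 4), then Gsdmd at 76.4 ± 4.54, Nlrp3 at 55.5 ± 9.08, Casp4 at 33.8 ± 5.54, Pycard at 14.7 ± 4.11 and Aim2 at 7.37 ± 2.03 RPKM, while Casp1 and Nlrc4 stayed close to 0. From Txnip down to Aim2, the ranges of neighbours in this order did not overlap in the PBS group. The means of neighbours stood 2.34-fold apart for Txnip over Gsdmd, 1.38-fold for Gsdmd over Nlrp3, 1.64-fold for Nlrp3 over Casp4, 2.29-fold for Casp4 over Pycard and 2.00-fold for Pycard over Aim2. MC-21 neutrophils had the same order of means, but there the ranges of Gsdmd and Nlrp3 overlapped, with means 1.07-fold apart. Casp1 and Nlrc4 overlapped each other in both groups. By mean over the 7 libraries, Txnip ranked 419th and Gsdmd 909th of the 16047 genes, Nlrp3 1089th, Casp4 1579th, Pycard 3000th and Aim2 5131st. The order depends on length: RPKM divides by transcript length, whereas libraries read from the 3′ end give reads that need not grow with it. The longest coding transcripts of the annotation are 4021 bases for Nlrp3 and 1776 for Gsdmd. With these lengths the PBS means would come to 223 RPM (reads per 1000000 mapped reads) for Nlrp3 and 136 RPM for Gsdmd, the reverse of their RPKM order. Aim2, at 2839 bases, would come to 20.9 RPM and Pycard, at 1405 bases, to 20.7 RPM. The 2.00-fold step of Pycard over Aim2 would thus be lost and its direction turned. The RPKM steps gave whole reads at the length used for Gsdmd. The length behind the Nlrp3 values is not known, since its coding transcripts run from 676 to 4021 bases. Those of Aim2 run from 326 to 2839 bases, and the steps did not give whole reads for Pycard at 1405 bases. The order by reads is therefore not known for Nlrp3 and Gsdmd, nor for Pycard and Aim2.

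**Figure D1:**
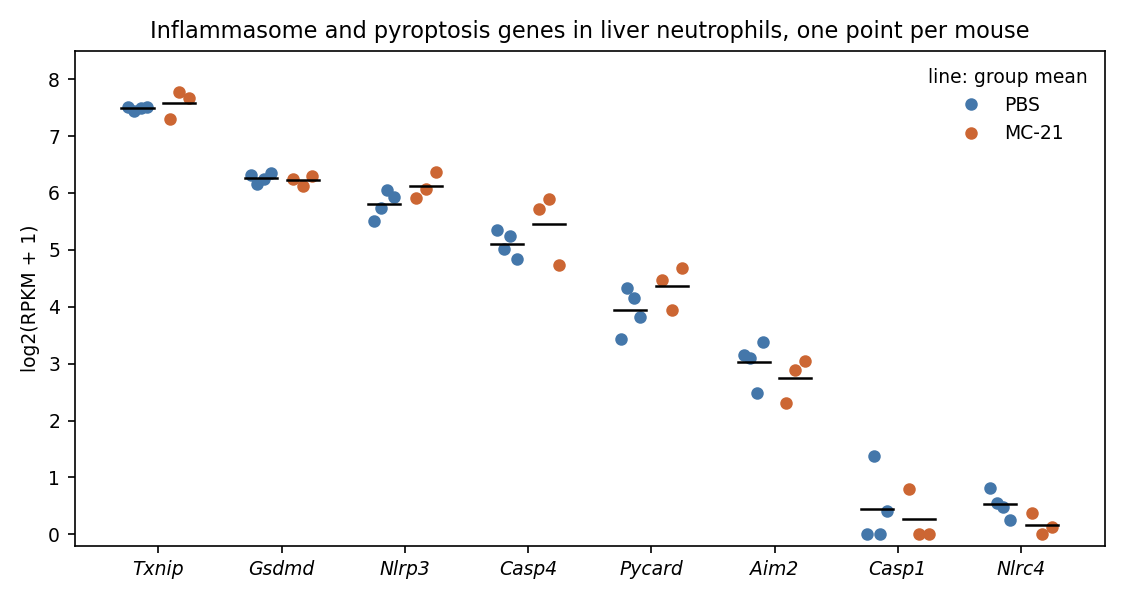
Levels of the 8 genes as log2(RPKM + 1) on the vertical axis, with one point per mouse, PBS in blue (n = 4), MC-21 in orange (n = 3) and a line at each group mean. Txnip lies highest, Casp1 and Nlrc4 lie near 0, and the points of both groups overlap for every gene.

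Nlrp3 was the most abundant of the 3 sensors. It lies on chromosome 11 from 59355070 to 59380458 of the mm9 build, on the plus strand. In PBS neutrophils Nlrp3 stood at 44.4, 52.2, 65.1 and 60.2 RPKM, and in MC-21 neutrophils at 59.0, 66.6 and 81.9 RPKM. The 2 highest MC-21 libraries lay above all PBS libraries and the lowest fell inside the PBS range, so the groups overlapped. The difference of 0.31 (SE 0.18) on the log2(RPKM + 1) scale did not pass the test (limma, adjusted p = 0.454), and its 95% interval ran from 0.942-fold to 1.64-fold. It was 0.19 without MC-21 replicate 4, and 0.48 with libraries centred on their medians (limma, unadjusted p = 0.0344, adjusted p = 0.370).

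Aim2, the DNA sensor, was detected in every library at a lower level. The annotation places it on chromosome 1 from 175281010 to 175396171 of mm9, plus strand. Its values were 7.84, 7.57, 4.59 and 9.45 RPKM in PBS and 3.97, 6.44 and 7.23 RPKM in MC-21 neutrophils. Both groups held 1 library near 4 RPKM, PBS replicate 7 and MC-21 replicate 2, and the ranges overlapped. Aim2 differed by -0.28 (SE 0.26) on the log2 scale (limma, adjusted p = 0.665), with a 95% interval from 0.547-fold to 1.24-fold. The difference was -0.06 without MC-21 replicate 2, -0.16 without PBS replicate 8, -0.42 without MC-21 replicate 4 and -0.46 without PBS replicate 7.

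Nlrc4, the partner of the flagellin-binding NAIP proteins, was close to the detection limit. It lies on chromosome 17 from 74825635 to 74858448 of mm9, minus strand, and its values were 0.754, 0.469, 0.392 and 0.197 RPKM in PBS and 0.292, 0 and 0.0937 RPKM in MC-21 neutrophils. With a transcript of 3838 bases these values equal 8, 6, 4 and 3 reads in the PBS libraries and 4, 0 and 1 reads in the MC-21 libraries. Over each group this was 1.65 RPM in PBS (exact Poisson 95% interval 1.02 to 2.52) and 0.629 in MC-21 (0.204 to 1.47), and the 2 intervals overlapped. The 0 in MC-21 replicate 3, the library of lowest depth, allows up to 0.491 RPKM, the value of 3 reads. These intervals cover counting error alone. The exact permutation test of log2(RPKM + 1) gave p = 0.114 (two-sided, smallest possible 0.0286), and a fit without the filter on low values gave an unadjusted p of 0.0428 and an adjusted p of 0.428 (limma). A difference in Nlrc4 was therefore not resolved at this depth.

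Pycard codes for ASC, the adaptor that joins sensors to caspase-1. It lies on chromosome 7 from 135135617 to 135137381 of mm9, minus strand, with a longest coding transcript of 1405 bases in 3 exons. PBS values were 9.82, 19.1, 16.9 and 13.1 RPKM, and MC-21 values were 21.1, 14.4 and 24.6 RPKM. MC-21 replicates 2 and 4 lay above all PBS libraries and replicate 3 lay within the PBS range. The log2 difference of 0.43 (SE 0.26) did not pass the test (limma, adjusted p = 0.480). Its 95% interval ran from 0.902-fold to 2.00-fold. The difference was 0.26 without PBS replicate 5, 0.27 without MC-21 replicate 4 and 0.63 without MC-21 replicate 3, the last with an unadjusted p of 0.0428 (limma).

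The inflammatory caspases Casp1 and Casp4 are neighbours, with 1562 bases between them in mm9, yet their measured levels were far apart. Casp4 lies on chromosome 9 from 5308828 to 5336783, plus strand, downstream of Casp1, which lies from 5298517 to 5307265. The 250 bases upstream of each gene's RefSeq start (build GRCm38.p6, plus strand) are given here because they are the promoters of an adjacent pair with unlike levels. In Casp4, at chr9:5308599-5308848, capitals mark matches to the NF-kappaB-type motif (GGG, any 2 bases, TT, any base, CC) on either strand, with 3 matches of which 2 overlap. In Casp1, at chr9:5298267-5298516, capitals mark the E-box CACGTG.
Casp4: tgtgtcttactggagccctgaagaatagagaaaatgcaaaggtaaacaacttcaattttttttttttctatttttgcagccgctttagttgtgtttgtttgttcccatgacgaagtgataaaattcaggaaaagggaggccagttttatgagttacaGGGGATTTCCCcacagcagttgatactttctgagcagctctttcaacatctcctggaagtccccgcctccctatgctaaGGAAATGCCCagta
Casp1: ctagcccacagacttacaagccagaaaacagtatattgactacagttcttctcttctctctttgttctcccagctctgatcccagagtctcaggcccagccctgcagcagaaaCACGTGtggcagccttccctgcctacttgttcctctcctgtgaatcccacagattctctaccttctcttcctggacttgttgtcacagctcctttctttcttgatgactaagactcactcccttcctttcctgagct
The same NF-kappaB-type letters occur in 4% of 27025 RefSeq promoters of this length and CACGTG in 6.05%. A match is a description of the letters and not of binding.

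Casp4 values were 39.8, 31.2, 36.7 and 27.5 RPKM in PBS and 51.6, 58.3 and 25.7 RPKM in MC-21 neutrophils. MC-21 replicates 2 and 3 were the highest of the 7 libraries and MC-21 replicate 4 was the lowest. The spread was accordingly wider in MC-21, with a coefficient of variation of 38.2% against 16.4% in PBS, and the log2 difference of 0.34 (SE 0.27) did not pass the test (limma, adjusted p = 0.607, 95% interval 0.830-fold to 1.93-fold). The size rested on single MC-21 libraries: it was 0.12 without replicate 3, 0.21 without replicate 2 and 0.70 without replicate 4, with adjusted p-values of 0.892, 0.786 and 0.252 (limma; unadjusted 0.685, 0.523 and 0.00598). In that library the macrophage genes Adgre1 and Mrc1, picked after their values were seen, were also lowest, at 3.88 and 6.02 RPKM, against 7.36 to 22.2 and 13.8 to 27.3 RPKM in the other libraries; their part in the Casp4 value was not tested.

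Casp1 was listed at 0 in 4 of the 7 libraries. Its values were 0, 1.59, 0 and 0.334 RPKM in PBS and 0.740, 0 and 0 RPKM in MC-21 neutrophils. At a transcript length of 1497 bases these came within 0.0846 of whole reads, 8 reads in PBS replicate 6, 2 in PBS replicate 8 and 4 in MC-21 replicate 2. The group totals were 0.786 RPM in PBS (exact Poisson 95% interval 0.377 to 1.45) and 0.503 in MC-21 (0.137 to 1.29). A value of 0 still allows up to 0.725 and 0.753 RPKM in PBS replicates 5 and 7, and 1.26 and 0.721 RPKM in MC-21 replicates 3 and 4. The difference of -0.18 on the log2(RPKM + 1) scale was not detectable (exact permutation test, two-sided, p = 0.714), and it became 0.13 without PBS replicate 6, which held most of the PBS reads. Reads outside the annotated Casp1 gene, such as those past its 3′ end, were not analysed here.

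Gsdmd, which codes for the pore-forming gasdermin D, had similar values in both groups. It lies on chromosome 15 from 75692769 to 75697834 of mm9, plus strand, in 11 exons. Values were 79.0, 70.7, 74.9 and 80.9 RPKM in PBS and 75.0, 69.0 and 78.2 RPKM in MC-21 neutrophils. The MC-21 mean of 74.1 ± 4.66 RPKM (SD, n = 3) lay within the PBS range, and the coefficient of variation was 5.94% in PBS and 6.29% in MC-21. The log2 difference was -0.04 (SE 0.13; limma, adjusted p = 0.900), and its 95% interval of 0.796-fold to 1.18-fold leaves out a change as large as 2-fold in either direction. The RPKM values matched 195 to 569 whole reads per library, 136 RPM in PBS (exact Poisson 95% interval 130 to 143) and 133 in MC-21 (125 to 141).

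Because Gsdmd varied so little, it served as a reference within each library for its upstream sensor. The ratio of Nlrp3 to Gsdmd RPKM was 0.562, 0.739, 0.868 and 0.744 in PBS and 0.786, 0.965 and 1.05 in MC-21 neutrophils. PBS replicate 7 lay above the lowest MC-21 library, so the groups overlapped. The means were 0.728 ± 0.126 (SD, n = 4) and 0.933 ± 0.134 (SD, n = 3). These ratios carry the division by length, and the length behind the Nlrp3 values is not known.

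Txnip, the thioredoxin inhibitor, was the most abundant of the 8 genes and nearly constant among PBS mice. It lies on chromosome 3 from 96361880 to 96365806 of mm9, plus strand. Its promoter is shown because Txnip is a well-known target of the glucose-sensing factors MondoA and ChREBP, which bind carbohydrate response elements. The sequence is the 250 bases upstream of the RefSeq start at chr3:96557707-96557956 of GRCm38.p6, plus strand. Capitals mark a pair of CACGAG boxes spaced by 5 bases and the CCAAT box on either strand.
Txnip: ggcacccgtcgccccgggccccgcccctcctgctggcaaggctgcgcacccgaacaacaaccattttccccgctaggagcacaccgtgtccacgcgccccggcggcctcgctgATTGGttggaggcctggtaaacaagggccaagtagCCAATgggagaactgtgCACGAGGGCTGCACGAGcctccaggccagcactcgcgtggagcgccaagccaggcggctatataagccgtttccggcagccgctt
The paired element, spelled from this promoter and sought on both strands, occurs in 1 of 27025 promoters, Txnip itself, a match that was certain in advance. CACGAG alone occurs in 5.49% and CCAAT in 34.5%. The same stretch of Arrdc4, a Txnip relative, held 0 paired elements, 0 single CACGAG boxes and 1 CACGTG. These matches describe letters and not binding.

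Txnip values were 182.4, 173.3, 179.2 and 181.0 RPKM in PBS and 157.0, 216.7 and 202.2 RPKM in MC-21 neutrophils. The MC-21 libraries lay on both sides of the narrow PBS range, replicate 2 below it and replicates 3 and 4 above it. The coefficient of variation was 2.23% in PBS and 16.2% in MC-21, and this difference in spread was not tested. Means were 179 ± 3.99 and 192 ± 31.1 RPKM, a log2 difference of 0.09 (SE 0.14; limma, adjusted p = 0.808) with a 95% interval from 0.854-fold to 1.32-fold. It was 0.22 without MC-21 replicate 2, 0.04 without replicate 4 and -0.0062 without replicate 3.

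Set side by side, none of the 6 genes that averaged 1 RPKM or more passed a test between MC-21 and PBS neutrophils. No gene of the 6 passed an adjusted p of 0.05 (limma, Benjamini-Hochberg over 9594 genes), a threshold passed by 0.625% of all genes tested. None met the study's own cutoffs either, an unadjusted p under 0.05 together with a 2-fold change, which 2.7% of all genes met (1.02% higher, 1.68% lower), and none had an unadjusted p under 0.05, against 14.7%. The groups did not separate for any of the 6, whereas they did for 13.3% of all genes. With 6 genes these counts are close to what the background shares would give. The log2 differences were above 0 for Pycard, Casp4, Nlrp3 and Txnip and below 0 for Gsdmd and Aim2, with a median of 0.20. The median over all 9594 genes was -0.15 and 30.6% of them lay above 0, since the MC-21 libraries had lower median values, 2.89 to 3.07 on the log2(RPKM + 1) scale against 3.13 to 3.23 in PBS. Relative to that median the differences were 0.57 for Pycard, 0.49 for Casp4, 0.46 for Nlrp3, 0.23 for Txnip, 0.10 for Gsdmd and -0.13 for Aim2, so that the sign for Gsdmd depends on the scaling. In sorted bulk RNA, fewer cells of a type and less RNA per cell cannot be told apart.

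**Figure D2:**
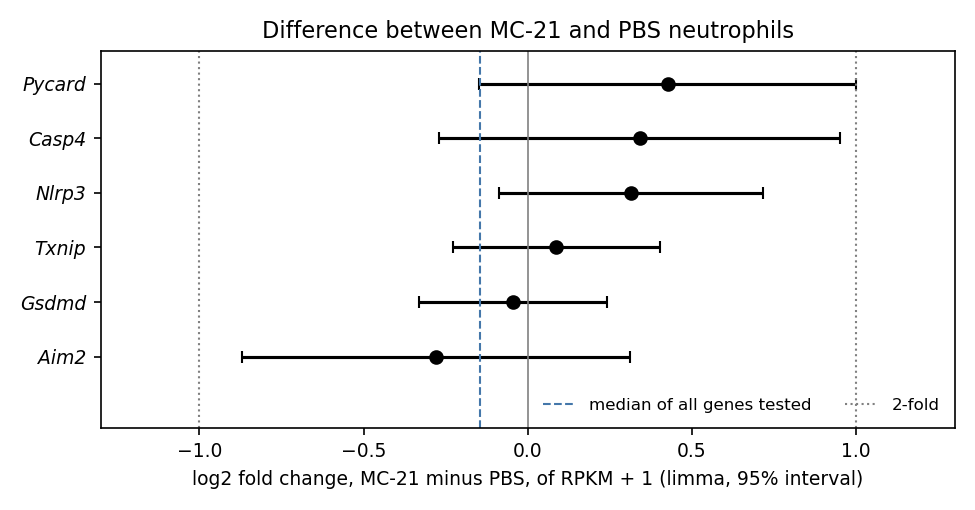
Log2 fold change of RPKM + 1 from PBS to MC-21 neutrophils on the horizontal axis for the 6 genes tested, with 95% intervals from limma; the blue dashed line is the median of all genes tested (-0.15) and the dotted lines mark 2-fold. Every interval includes 0, and the intervals of Gsdmd and Txnip are the narrowest.

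The genes did not vary together from mouse to mouse in one block. With each library centred on its median, Pearson's r over the 7 libraries ran from -0.54 for Aim2 with Casp4 to 0.78 for Nlrp3 with Pycard, and was 0.74 for Nlrp3 with Txnip. These correlations share the libraries and the 2 groups and are given as a description. In MC-21 replicate 4, Nlrp3 and Pycard were at their highest and Casp4 at its lowest, while PBS replicate 5 had the lowest Nlrp3 and Pycard. Among 5859 other genes, those most like each gene over the 7 libraries were Trmt2a and Il10ra for Nlrp3 (r = 0.98 for both), and Il10ra codes for the IL-10 receptor subunit. For Pycard they were Chmp4b (r = 0.99), an ESCRT-III subunit of membrane repair, and Cyfip2 (r = 0.98). For Aim2 they were Nisch (r = 0.98) and Prpf8 (r = 0.97), for Casp4 Ywhab and Yif1b (r = 0.95 for both), for Gsdmd Adamts1 (r = 0.99) and Chst11 (r = 0.98), and for Txnip Cir1 and Slc7a8 (r = 0.97 for both). With 7 points and a search of this size, such high values were found for every one of the 6 genes.

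**Figure D3:**
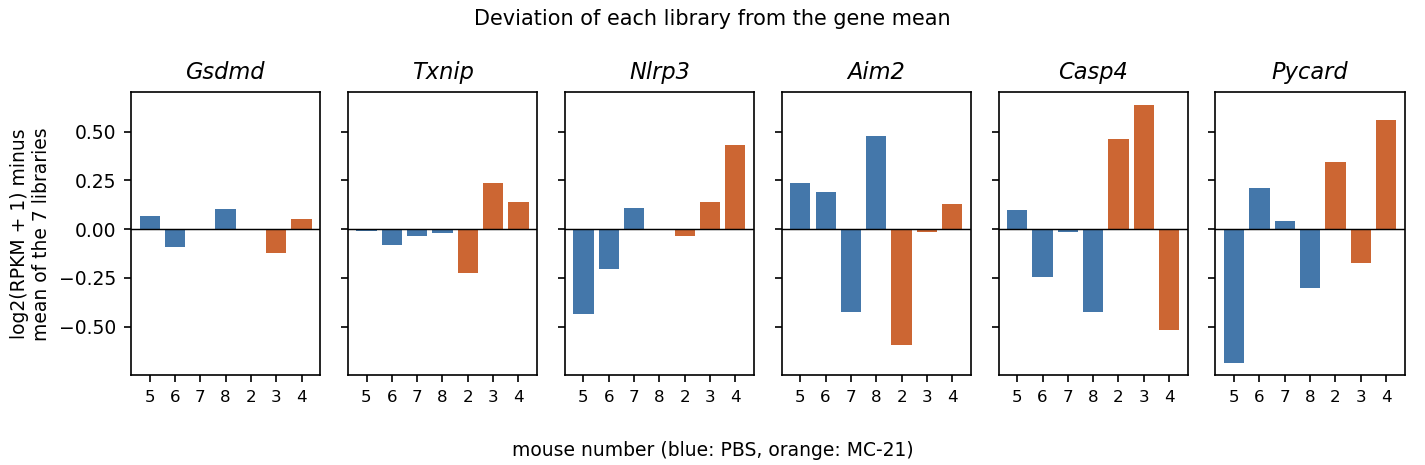
Deviation of each library's log2(RPKM + 1) from the gene's mean over the 7 libraries, on the vertical axis, for the 6 genes tested, with the mouse number on the horizontal axis, PBS in blue and MC-21 in orange. Bars for Gsdmd run from -0.12 to 0.10, those for Casp4 point up in MC-21 replicates 2 and 3 and down in replicate 4, and those for Nlrp3 and Pycard are tallest upward in replicate 4.

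The wider pathway was read from 7 lists of 98 genes beside the 8, of which 93 were in the table and 76 averaged 1 RPKM or more. None of the 76 passed the adjusted threshold (limma), against 0.625% of all genes. At an unadjusted p under 0.05, 11 were higher and 1 was lower in MC-21 neutrophils, against 3.59% and 11.2% of all genes. Il1rn and Fkbp5 met the criterion of unadjusted p with a 2-fold change, both higher, against 1.02% of all genes. The groups did not overlap for 9 genes higher and 1 lower, against 3.1% and 10.2%. The median log2 difference of the 76 genes was 0.02. The lists were chosen with earlier results of these data known, and the study had reported Il1rn and Fkbp5 as increased. The list counts here are therefore a description and not a test.

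Among the other sensors, 8 of 16 were tested and 1, Mefv, had an unadjusted p under 0.05, against 14.7% of all genes. Mefv codes for pyrin, an inflammasome sensor that responds to bacterial toxins. Its values were 10.7, 21.2, 18.3 and 16.2 RPKM in PBS and 30.7, 27.8 and 27.1 RPKM in MC-21 neutrophils. All 3 MC-21 libraries lay above all PBS libraries, a log2 difference of 0.78 (SE 0.22) with an unadjusted p of 0.00576 that did not pass adjustment (limma, adjusted p = 0.170). Nod1, a receptor for bacterial peptidoglycan, stood at 21.6 ± 4.27 RPKM in PBS (n = 4) and 25.1 ± 3.98 in MC-21 (n = 3), and differed by 0.21 (limma, adjusted p = 0.648). Nlrp12, a member of the NLR family, differed by 0.16 (limma, adjusted p = 0.778). Nlrp1a, Nlrp1b, Nlrp6 and Nlrp10 had means under 1 RPKM. Of the NAIP proteins, which present flagellin and secretion system parts to NLRC4, Naip2 averaged 6.31 RPKM and Naip5 0.890 RPKM, with Naip1 and Naip6 near 0, but these are close copies and reads may have been split among them.

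The 13 tested genes that prime or assist NLRP3 held no gene with an unadjusted p under 0.05, against 14.7% of all genes, and their median difference was -0.08, against -0.15 for all genes. Txn1, the thioredoxin bound by TXNIP, was abundant at 905 ± 167 RPKM in PBS and 875 ± 82.5 RPKM in MC-21 neutrophils, a difference of -0.04 (limma, adjusted p = 0.937). The chaperone gene Hsp90ab1 differed by -0.24 (adjusted p = 0.594) and Pstpip1, whose product binds pyrin, by -0.16 (adjusted p = 0.727) in the same limma fit. Nek7, which licenses NLRP3 assembly, averaged 5.98 RPKM and differed by 0.06 (limma, adjusted p = 0.951), with a range of -0.16 to 0.37 over the alternatives, so that its sign turned.

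Of the guanylate-binding proteins, immunity-related GTPases and their interferon regulatory factors, which help expose lipopolysaccharide to caspase-11, 9 of 13 were tested and none had an unadjusted p under 0.05, against 14.7% of all genes. Their median difference was -0.26 and that of all genes -0.15, and 2 of the 9 lay above 0, against 30.6% of all genes. Gbp2 ranged from 4.57 to 16.5 RPKM in PBS and from 1.61 to 11.4 RPKM in MC-21 neutrophils, with MC-21 replicate 4 lowest, and differed by -0.54 (limma, adjusted p = 0.712). Members of the Gbp family are similar in sequence and their separate values are uncertain. Irf1 differed by -0.16 (adjusted p = 0.675) and Irf2, a known activator of Gsdmd transcription, by 0.15 (adjusted p = 0.702), both by limma.

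Among other caspases, gasdermins and membrane rupture genes, 6 of 11 were tested. Ninj1, whose product ruptures the plasma membrane after pyroptosis, was more abundant than any of the 8 genes, at 463 ± 52.8 RPKM in PBS and 506 ± 114 RPKM in MC-21 neutrophils, ranked 160th of all genes and differed by 0.11 (limma, adjusted p = 0.795). Dfna5, which codes for gasdermin E, stood at 15.2 ± 6.03 and 22.6 ± 2.25 RPKM and differed by 0.62 (limma, adjusted p = 0.348). Casp6, chosen after its values were seen, had groups that did not overlap and differed by 0.53 (limma, adjusted p = 0.285).

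The IL-1 and IL-18 system held the most abundant transcript of the pathway lists. Il1b, the main substrate of caspase-1, ranked 4th of all 16047 genes, at 7174, 5868, 8005 and 6954 RPKM in PBS and 7988, 6602 and 7658 RPKM in MC-21 neutrophils. The ranges of Il1b overlapped over most of their length, and it differed by 0.09 (limma, adjusted p = 0.799). Il1b exceeded Nlrp3 by 93.5-fold to 161-fold across the 7 libraries on the RPKM scale. Il18 was low, with a mean of 1.64 RPKM, and differed by -0.51 (limma, adjusted p = 0.511).

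Of the 11 tested genes of this list, 4 had an unadjusted p under 0.05 (limma), all higher in MC-21, against 3.59% of all genes. The list median was 0.54. The list was chosen with earlier results of these data known, and the study had reported Il1rn as increased, so this count is a description. Il1rn, the secreted antagonist of the IL-1 receptor, stood at 54.4, 145.6, 86.1 and 105.2 RPKM in PBS and 235.7, 177.7 and 188.0 RPKM in MC-21 neutrophils. No MC-21 library overlapped PBS, and the difference was 1.10 (SE 0.29; limma, unadjusted p = 0.00364, adjusted p = 0.144, or 0.0496 without PBS replicate 6). Il1r2, the decoy receptor for IL-1, stood at 272.5, 224.5, 380.2 and 413.9 RPKM in PBS and 560.9, 520.2 and 812.6 RPKM in MC-21 neutrophils. Its groups did not overlap either, with a difference of 0.98 (SE 0.24, limma, unadjusted p = 0.00243, adjusted p = 0.118). The exact two-sided permutation test gave p = 0.0286 for Il1r2, the smallest possible, and p = 0.0571 for Il1rn. Il1r2 is also 1 of the 12 neutrophil markers. The other 2 genes, the signalling receptor Il1r1 and the IL-18 receptor chain Il18rap, were picked after their values were seen. They differed by 0.97 and 0.64 (limma, adjusted p = 0.210 and 0.288), each with p = 0.0857 in the exact permutation test.

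A further list, headed inhibitors of assembly, caspase activity or pore damage, held 13 tested genes, and whether each acts as an inhibitor was not tested. All 13 missed the adjusted threshold (limma), which 0.625% of all genes passed. At an unadjusted p under 0.05 there was 1, against 14.7% of all genes. Card19, a mitochondrial CARD protein, was the most abundant and differed by 0.15 (limma, adjusted p = 0.688), followed by the ESCRT-III genes Chmp2a (-0.02, adjusted p = 0.970) and Chmp4b (0.12, adjusted p = 0.747). Tnfaip3, which codes for the ubiquitin-editing enzyme A20, was picked after its values were seen. It stood at 28.0 ± 7.99 RPKM in PBS and 50.0 ± 6.62 RPKM in MC-21 neutrophils without overlap and differed by 0.85 (limma, unadjusted p = 0.0046, adjusted p = 0.157).

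Around Txnip, 16 genes were tested, among them regulators, arrestin relatives, thioredoxin genes and glucocorticoid-induced genes. Of these 16, 4 were higher and 1 lower at an unadjusted p under 0.05 (limma), against 3.59% and 11.2% of all genes. The list was chosen with earlier results of these data known, and the study had reported Fkbp5 as increased. These counts are therefore a description and not a test of the list. Fkbp5, a glucocorticoid-induced co-chaperone gene, stood at 31.7, 22.3, 21.0 and 28.9 RPKM in PBS and 47.2, 53.5 and 80.4 RPKM in MC-21 neutrophils. All MC-21 libraries of Fkbp5 were above all PBS libraries, with a difference of 1.17 (SE 0.22; limma, unadjusted p = 4.4e-04), and the adjusted p of 0.0572 lay just outside the threshold, and was 0.0428 with libraries centred on their medians. Arrdc4, the arrestin gene closest to Txnip in its regulation by MondoA, was picked after its values were seen and stood at 10.2 ± 2.39 RPKM in PBS and 16.9 ± 3.68 RPKM in MC-21 without overlap, a difference of 0.69 (SE 0.22; limma, adjusted p = 0.217). The other arrestin genes of the list had negative differences, -0.71 for Arrdc3, -0.18 for Arrdc1 and -0.11 for Arrdc2 (limma, adjusted p = 0.377, 0.795 and 0.855), though Arrdc2 ranged from -0.28 to 0.074 over the alternatives and its sign turned. Mitochondrial thioredoxin, Txn2, was the gene lower at an unadjusted p under 0.05, 82.6 ± 4.39 against 63.2 ± 10.6 RPKM (-0.39; limma, unadjusted p = 0.025, adjusted p = 0.274). With libraries centred on their medians Txn2 differed by -0.23 (limma, unadjusted p = 0.166), and without MC-21 replicate 3 by -0.30 (unadjusted p = 0.106). The other 2 higher genes, the glucocorticoid-induced Klf9 and the clock gene Per1, were picked after their values were seen and differed by 0.49 and 0.61 (limma, unadjusted p = 0.00736 and 0.0435, adjusted p = 0.182 and 0.327), without overlap for Klf9. Tsc22d3, a glucocorticoid-induced gene, differed by 0.13 (limma, adjusted p = 0.795) and Slc2a1, the glucose transporter GLUT1, by 0.30 (limma, adjusted p = 0.664).

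**Figure D4:**
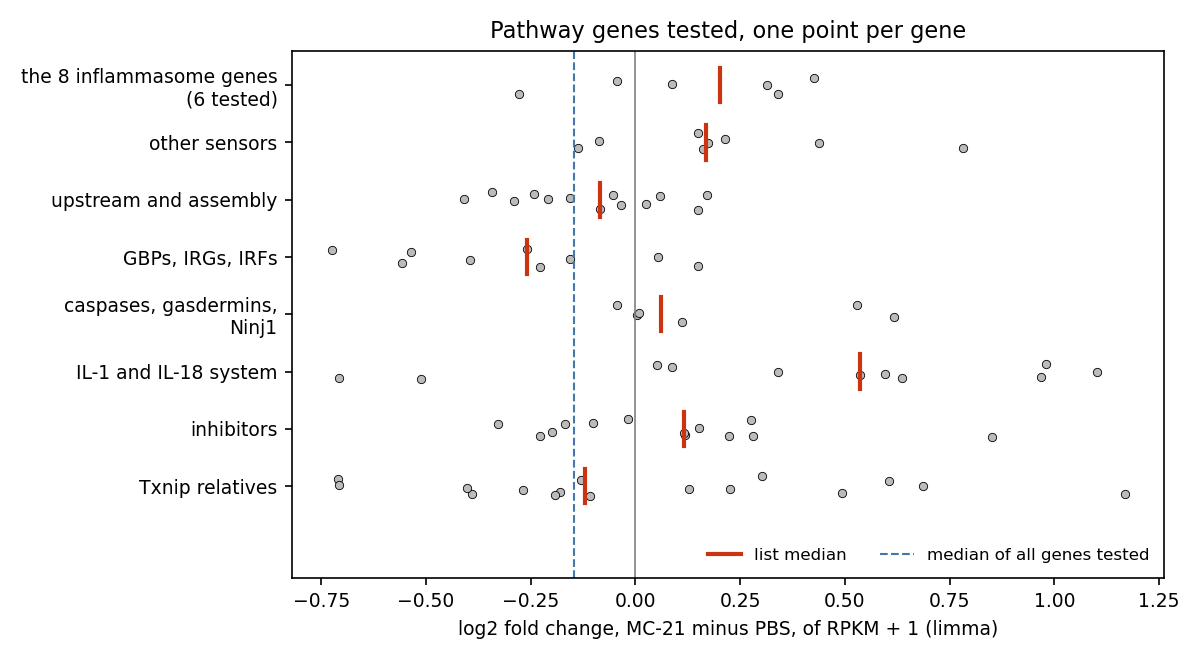
Log2 fold change of RPKM + 1 from PBS to MC-21 neutrophils on the horizontal axis, one grey point per tested gene, for the 8 inflammasome genes (6 tested) and the 7 pathway lists (76 tested); red lines are list medians and the blue dashed line the median of all genes tested. The IL-1 and IL-18 system has the highest list median, 0.54, and the guanylate-binding list the lowest, -0.26.

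Transcripts known as markers of other cell types were also measured in the sorted samples, and their source, neutrophils, other cells or free RNA, was not tested. The 14 monocyte and macrophage markers summed to 2121 ± 167 RPKM in PBS (n = 4) and 1274 ± 237 RPKM in MC-21 neutrophils (n = 3), and 5 of the 13 tested passed the adjusted threshold, all lower in MC-21, against 0.427% of all genes. Apoe was the most abundant of them, at 1216 to 1674 RPKM in PBS and 803 to 1202 RPKM in MC-21. Ccr2, the receptor on Ly6Chi monocytes, was at 1.91 to 3.26 RPKM in PBS and at 0.390, 0 and 0.200 RPKM in MC-21 replicates 2, 3 and 4 (-1.51; limma, adjusted p = 0.0263), and Fcgr1 and C1qb fell by 2.22 and 1.36 (limma, adjusted p = 0.00851 and 0.00816). Over the alternatives the adjusted p (limma) reached 0.0931 for Ccr2, whose difference ran from -3.33 to -0.51, and 0.0587 for Fcgr1. It reached 0.0762 for C1qa and 0.105 for C1qc, which were also among the 5 called. Each of these calls was lost under at least 1 alternative. Only C1qb, at 0.0459 or lower, was called under all of them. The 12 neutrophil markers summed to 25010 ± 6022 RPKM in PBS and 36398 ± 6973 RPKM in MC-21, with overlap, and none passed the adjusted threshold (limma), though 4 were higher at an unadjusted p under 0.05, against 3.59% of all genes. Endothelial markers summed to 4487 ± 706 and 4088 ± 543 RPKM, mostly from Igfbp7, hepatocyte markers to 388 ± 125 and 354 ± 78.2 RPKM, and Kupffer cell markers to 73.1 ± 13 and 49.9 ± 13.8 RPKM. The 4 B cell markers were low and did not overlap between groups either, with sums of 10.7 to 29.9 RPKM in PBS and 6.14 to 9.73 RPKM in MC-21, and none of the 3 tested passed the adjusted threshold (limma), while 2 were lower at an unadjusted p under 0.05, against 11.2% of all genes. Monocytes and macrophages also express inflammasome genes, and the part of these cells in the values above was not tested.

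**Figure D5:**
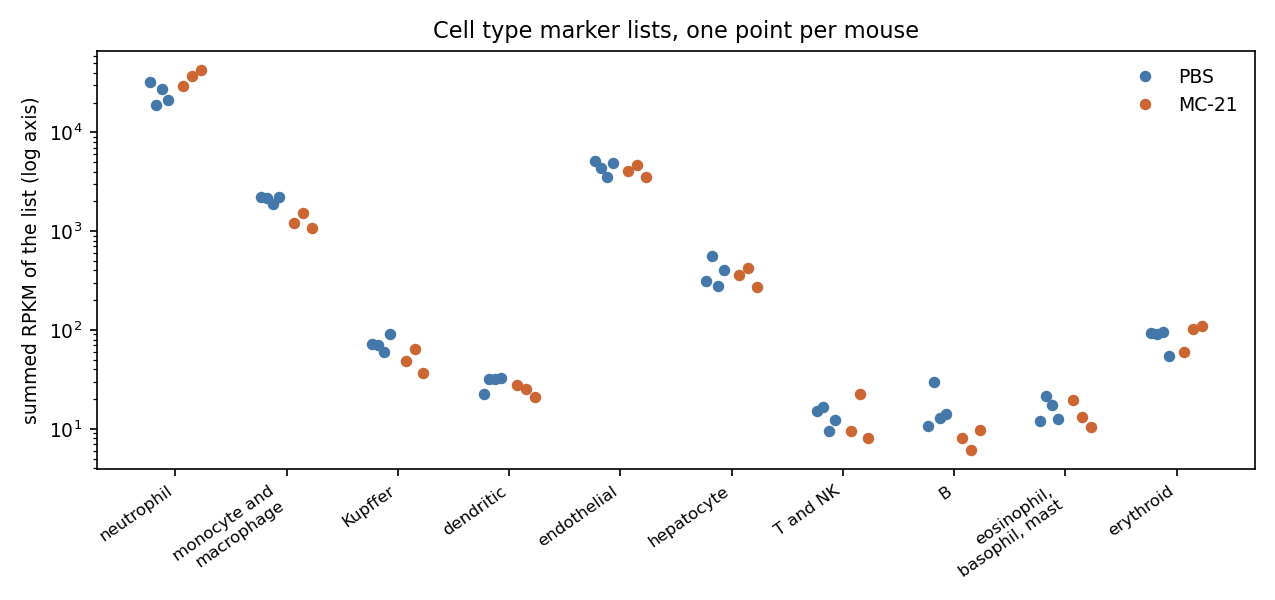
Summed RPKM of 10 marker lists on a log axis, one point per mouse, PBS in blue (n = 4) and MC-21 in orange (n = 3). The monocyte and macrophage list and the B cell list are lower in every MC-21 library than in any PBS library, and the neutrophil list is the largest in all 7 libraries.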

How the data were processed

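Liver neutrophils of 7 mice (4 PBS, 3 MC-21) were measured by 3′ RNA-seq. The authors deposited 1 table of RPKM values, reads per kilobase and 1000000 mapped reads, per gene and library; the submitters' processing notes name bcl2fastq, HISAT 0.1.5, SAMtools, Partek 6.6 and the mm9 build, and the annotation used for counting is not given in the sources used here. Depth was read from the steps between low RPKM values (631 genes, 51.3% within 1% of the most frequent depth), and reads per gene followed from the transcript length. Values were taken as log2(RPKM + 1) for the 9594 genes averaging 1 RPKM or more. They were fitted with limma 3.58.1 (trend, Benjamini-Hochberg adjustment over all 9594) in R 4.3.3. The study's cutoffs, an unadjusted p under 0.05 and a 2-fold change, were a second criterion. They were applied to the limma fit, whereas the study used an unpaired t-test. A fold change on this scale understates the change of low genes. Exact two-sided permutation tests covered all 35 assignments of the libraries to groups of 4 and 3 (scipy 1.17.1, Python 3.11.15). The code was tested on simulated data.

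The 8 genes and all lists were chosen with earlier results of these data known. Named from each pathway list were genes with an adjusted p under 0.05, genes meeting the second criterion and the 3 with the highest mean, of which 1 is not reported here; for likeness, the 2 genes of highest Pearson r among genes averaging 5 RPKM or more. Genes named beyond this rule were chosen after their values were seen. Gene coordinates are from GENCODE vM1 (mm9) and promoters from RefSeq (GRCm38.p6), which matched 7 of the 8 genes; Gsdmd was not matched. Nlrc3, Gsdmc, Elane, Nlrp2 and Pydc3 were not analysed here. The alternatives were pseudocounts of 0.1 and 5, no filter or a mean of at least 5 RPKM, median centring, quantile normalization, no trend, array weights and leaving out each library. Each library is a separate mouse per the labels.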

Additional observations from a re-analysis of the deposited data

Results flagged for a closer look

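Of 31 group values examined, 2 held a library far from the other 3 of its group. Nlrp12 was at 5.77 RPKM in PBS replicate 8 and at 8.46 to 8.94 RPKM in the other PBS libraries, a gap of 0.850 of the group's range. Slc2a1 was at 75.3 RPKM in PBS replicate 7 and at 50.5 to 53.0 RPKM in the others, a gap of 0.898 of the range. Both exceed Dixon's 95% critical value for 4 samples, which chance passes in about 1 of 20 groups.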

How the results depend on the processing

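None of the 6 genes tested was called under any of the 15 alternatives, and Casp1 and Nlrc4, which were tested only without a filter on low values, were not called there. The calls over the whole table were less stable: 60 genes passed the adjusted threshold, against 6 with no filter and 9 to 102 on leaving out 1 library (102 without PBS replicate 6, 14 and 9 without PBS replicates 7 and 8, 19, 35 and 18 without MC-21 replicates 2, 3 and 4). Of the 60, 31.7% were higher in MC-21, against 59.5% of 74 with median centring and 47.3% of 55 with quantile normalization. The second criterion gave 259 genes, and 433 with a pseudocount of 0.1, 94 with a pseudocount of 5, 153 with a mean of at least 5 RPKM and 231 to 368 on leaving out 1 library. Pathway calls by adjusted p went from 0 to 1 with a mean of at least 5 RPKM (Fkbp5, adjusted p = 0.0482), to 1 with centring (Fkbp5, 1.33, adjusted p = 0.0428), and ranged from 0 to 1 on leaving out 1 library (Il1rn, 1.32, adjusted p = 0.0496 without PBS replicate 6, all limma); by the second criterion they went from 2 to 5 with centring and ranged from 1 to 4.

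The direction turned with median centring for Gsdmd (0.12), Txn1 (0.13), Pstpip1 (0.008), Irf1 (0.0083) and Chmp2a (0.15; 0.0305 with quantile normalization). On leaving out 1 library it turned for Casp1 (-0.45 to 0.13), Chmp2a (-0.0885 to 0.091), Gbp2 (-0.92 to 0.21), Gsdmd (-0.0832 to 0.0056), Ninj1 (-0.0643 to 0.23), Nlrp12 (-0.0274 to 0.32), Slc2a1 (-0.0399 to 0.61), Tsc22d3 (-0.0587 to 0.27), Txn1 (-0.11 to 0.0829) and Txnip (-0.0062 to 0.22). Nek7 (-0.16 to 0.37) and Arrdc2 (-0.28 to 0.074) turned under at least 1 of the alternatives. The causes were not tested. No paired analysis was possible because the groups share no replicate numbers. Casp1 and Nlrc4 had at most 8 reads in any library, which limits the precision of their values.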
